A study of Mus musculus with 18 samples.

Results

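The comparison described here is the difference between the distal and the proximal end of the mouse colon in how organoids respond to a differentiation medium. It was taken as distal differentiation minus distal control, minus the same difference for proximal organoids, on log2(FPKM + 1). It used 12 of the 18 libraries of the study, and 12461 of the 56748 genes in the deposited table had at least 1 FPKM in at least 3 of the 12 libraries and were tested. The 12 libraries are 4 groups of 3: proximal and distal colon organoids, each in ENR with Wnt3a-conditioned medium (the control medium, labelled as the proliferative state) or in differentiation medium, with the media applied 3 days after passaging. The labels name no genotype, strain or age, and do not state whether replicates 1 to 3 are separate animals, lines or cultures. What the p-values measure is thus the spread among these libraries alone, which may be technical. RNA sequencing of poly-A RNA gave FPKM, fragments per kilobase of gene scaled to library size, and values for 3 libraries are listed in replicate order. The 6 mid colon libraries entered no test, and their response is given as a value only.

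Colon organoids are epithelial cultures in which Wnt and growth factor signals keep crypt-type cells dividing. When those signals are withdrawn, the cells leave the cycle and take up the genes of surface colonocytes and goblet cells. The distal colon is known for sodium recovery through the epithelial sodium channel and for expression of the most posterior Hox genes. Calcium, phosphate and sodium carriers of the surface epithelium, and enzymes that make cholesterol, are among the gene groups measured here.

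Library depth was 12827751 to 19668665 recovered reads. On the first principal component, along which the media separated (60.7% of the variance), proximal differentiation replicate 1 lay at 10.9, between the controls (-60.7 to -44.8) and replicates 2 and 3 of its group (50 and 43.4). Total counts and the opposite classes are therefore given with and without this library, and list counts for some lists only. Mitochondrial genes took 2.01% to 2.09% of reads in proximal control, 2.46% to 2.79% in proximal differentiation, 2.16% to 2.99% in distal control and 3.99% to 5.57% in distal differentiation libraries. Epithelial markers were present in all 12 libraries (Epcam 336 to 1182 FPKM, Cdh1 211 to 395 FPKM, Cdx2 13.5 to 273 FPKM). Fibroblast markers (14 genes, 4 of them at 0, among these Col1a2 and Dpt) summed to 1.47 to 12.9 FPKM, immune and endothelial markers (18 genes, 7 at 0) to 0.784 to 4.26 FPKM, and neural and muscle markers (14 genes, 2 at 0) to 0.526 to 1.21 FPKM. The fibroblast sum was 3.80 to 5.66 FPKM in proximal control, 1.47 to 2.25 in proximal differentiation, 6.21 to 10.3 in distal control and 3.07 to 12.9 in distal differentiation libraries. The part of these markers and of the mitochondrial share in the differences below was not tested. In bulk RNA, fewer cells of a type and less RNA per cell cannot be told apart.

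The medium response differed between the ends for 510 genes (4.09% of those tested). The difference, distal minus proximal, was above 0 for 264 of them (2.12%) and below 0 for 246 (1.97%), and 443 of the 510 were protein-coding. Responses were called opposite, with a called rise at one end and a called fall at the other, for 55 genes. In 15 of these the distal end rose and the proximal end fell, and in 40 the distal end fell and the proximal end rose. The other 455 genes had a larger response at one end: 318 at the distal end (215 rises and 103 falls) and 137 at the proximal end (103 rises and 34 falls). For reading these counts, 29.3% of tested genes were called as distal rises, 29.3% as distal falls, 25.7% as proximal rises and 23.1% as proximal falls. The regional difference was called for 6.82% of genes in control medium and 23.5% in differentiation medium. Among the 510 genes the regional difference was wider in differentiation medium for 426, narrower for 64 and turned over for 11.

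Without proximal differentiation replicate 1 the count was 547 genes (4.39%), and 433 of the 510 were called again with the same sign. The count fell to 268 without proximal control replicate 2, to 286 without proximal control replicate 3, to 306 without proximal differentiation replicate 3 and to 335 without distal differentiation replicate 2. Scaled to summed reads, 215 genes (41.1%) were higher and 308 lower, and that scaling moved the median difference of all tested genes from -0.0083 to -0.11. The library size behind the deposited FPKM was not the sum of the recovered reads. The reads came to 0.842 to 0.865 of that size in proximal control, 0.959 to 1.15 in proximal differentiation, 0.831 to 0.873 in distal control and 1.08 to 1.32 in distal differentiation libraries, so the gap moved with the medium. The median response of all tested genes was 0.0028 distally and -0.015 proximally on the deposited scale, and -0.35 and -0.26 when scaled to summed reads. Small rises within an end depend on this scale. Of the 55 opposite genes, 46 kept a called difference under summed reads and 18 remained opposite, 3 of the 15 and 15 of the 40, while median-of-ratios scaling kept all 55.

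The added 1 in log2(FPKM + 1) weighs on genes that are nearly silent at one end. Of the 510 genes, 117 had a proximal mean under 1 FPKM in both media, 60 had a distal mean under 1 FPKM in both media, and 333 reached 1 FPKM at each end. As a description added after values were seen, the fold at the distal end was set against the fold at the proximal end for genes with over 3 reads in all 4 groups. All 55 opposite genes had enough reads, and in all 55 the 2 folds differed by at least 1.5 times in the direction of the call. That class was picked by called responses of unlike sign in these same libraries. Its outcome here was therefore nearly fixed in advance and is no separate support. Among the 455 others 367 had enough reads, of which 344 differed by at least 1.5 times in the same direction, 19 by less, and 4 by at least 1.5 times the other way. A count-based fit on the recovered reads (limma-voom) gave the same sign for 493 of the 510 genes and called 224 of them, among which were 48 of the 55 opposite genes and 176 of the 455 others.

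**Figure D1:**
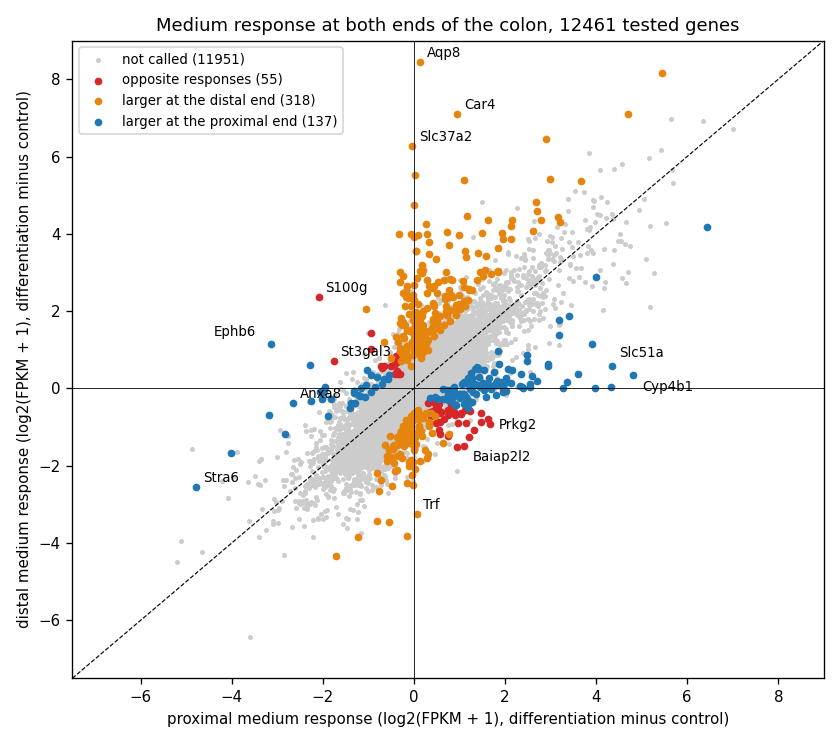
Medium response of the 12461 tested genes at the proximal end (x axis) and the distal end (y axis), each as differentiation minus control on log2(FPKM + 1). The dashed line marks equal responses: the 55 opposite genes (red) lie at the upper left and lower right, the 318 genes with a larger distal response (orange) lie farther from 0 along the y axis, with Aqp8 highest, and the 137 with a larger proximal response (blue) farther along the x axis.

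The 15 genes that rose at the distal end and fell at the proximal end included the calcium buffer S100g and the glycan-modifying enzymes St3gal3 and Fut8. S100g is calbindin-D9k, a cytosolic calcium buffer of calcium-absorbing epithelium (ENSMUSG00000040808, chromosome X, 161744988 to 161747595; coordinates here are those of the deposited table, on mm39 per the submitters' processing notes). S100g stood at 4.02, 8.58 and 6.35 FPKM in proximal control and 0.377, 0.831 and 0.822 FPKM in proximal differentiation libraries. At the distal end, S100g was at 1.85, 8.66 and 5.01 FPKM in control and 47.2, 23.4 and 17.9 FPKM in differentiation medium. The media did not overlap at either end, while the control libraries of the ends did overlap. The response was 2.36 ± 0.44 at the distal and -2.09 ± 0.44 at the proximal end, a difference of 4.45 ± 0.62, adjusted p = 0.00249 (SE, n = 3 libraries per group, limma with Benjamini-Hochberg adjustment). The mid response of S100g was -0.34.

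Capn13, a calpain-family protease (ENSMUSG00000043705, chromosome 17, 73613459 to 73707861), was at 3.07, 3.26 and 3.06 FPKM in proximal control and 1.18, 0.866 and 1.49 FPKM in proximal differentiation libraries. Distal Capn13 measured 18.9, 13.6 and 17.4 FPKM in control and 33.2, 58.2 and 52.2 FPKM in differentiation libraries. All distal libraries exceeded all proximal ones in each medium, and the gap was wider in differentiation medium. The response was 1.44 ± 0.20 at the distal and -0.93 ± 0.20 at the proximal end, a difference of 2.38 ± 0.28, adjusted p = 0.00107. St3gal3, a Golgi enzyme that adds sialic acid to glycans (ENSMUSG00000028538, chromosome 4, 117789351 to 117992111), was at 20.7, 21.2 and 23.5 FPKM in proximal control and 6.49, 5.08 and 5.68 FPKM in proximal differentiation libraries. The distal values of St3gal3 were 20.1, 26.7 and 28.1 FPKM in control and 38.9, 39.02 and 45.7 FPKM in differentiation libraries. The ends overlapped in control medium only. The response was 0.71 ± 0.14 at the distal and -1.76 ± 0.14 at the proximal end, a difference of 2.47 ± 0.20, adjusted p = 6.35e-05. Fut8, which adds the core fucose of N-glycans (ENSMUSG00000021065, chromosome 12, 77284899 to 77523112), was at 8.05, 6.15 and 7.42 FPKM in proximal control and 4.31, 3.86 and 3.99 FPKM in proximal differentiation libraries. In distal organoids Fut8 stood at 17.4, 15.5 and 13.4 FPKM with control and 24.3, 23.9 and 20.2 FPKM with differentiation medium. The response was 0.54 ± 0.13 at the distal and -0.69 ± 0.13 at the proximal end, a difference of 1.23 ± 0.18, adjusted p = 0.00389.

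Fdxr, the mitochondrial reductase that passes electrons to ferredoxin (ENSMUSG00000018861, chromosome 11, 115158850 to 115167876), was at 4.63, 4.78 and 4.45 FPKM in proximal control and 3.44, 2.16 and 2.19 FPKM in proximal differentiation libraries. Its distal libraries held 5.21, 5.76 and 3.27 FPKM in control and 6.31, 9.18 and 7.12 FPKM in differentiation medium. The response was 0.58 ± 0.20 at the distal and -0.66 ± 0.20 at the proximal end, a difference of 1.25 ± 0.28, adjusted p = 0.0286. The Fdxr call was lost without any 1 of distal control 1, distal differentiation 2, proximal control 1, 2 or 3, or proximal differentiation 2 or 3 (adjusted p = 0.0503 to 0.0817), and with limma-voom (adjusted p = 0.0528). Spry2, a feedback inhibitor of receptor tyrosine kinase signalling (ENSMUSG00000022114, chromosome 14, 106129381 to 106134253), was at 15.7, 15.1 and 18.9 FPKM in proximal control and 12.4, 10.9 and 10.9 FPKM in proximal differentiation libraries. At the distal end, Spry2 was at 13.8, 19.9 and 17.1 FPKM in control and 27.9, 25.6 and 23.4 FPKM in differentiation medium. The response was 0.58 ± 0.14 at the distal and -0.49 ± 0.14 at the proximal end, a difference of 1.08 ± 0.20, adjusted p = 0.0127. Scaled to summed reads, S100g and Capn13 remained opposite, while the distal rises of St3gal3, Fut8, Fdxr and Spry2 were not called (0.27, 0.10, 0.20 and 0.15), and Fdxr lost its called difference (adjusted p = 0.0983). In Fdxr and Spry2 the media were separate at each end and the control libraries of the ends overlapped. In the whole class of 15 the median response was 0.59 distally and -0.49 proximally, and both responses reached 1 in size only for S100g. The other members were Plin2, Pdcd4, Mbd1, Nsmf, Nlrx1, Vsig1, Tmem168, Twsg1 and Brat1, all protein-coding. Without proximal differentiation replicate 1, 13 of the 15 were called, and Plin2 and Pdcd4 were not (limma adjusted p = 0.0655 and 0.0546). The class shrank to 5 genes without proximal control replicate 2, without proximal control replicate 3 or without proximal differentiation replicate 2, and to 6 without proximal differentiation replicate 3.

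The reverse pattern, a distal fall with a proximal rise, held 40 genes, 37 of them protein-coding, with median responses of -0.65 and 0.74. Acsf2, a mitochondrial acyl-CoA synthetase (ENSMUSG00000076435, chromosome 11, 94447928 to 94492697), was at 32.1, 16.6 and 15.7 FPKM in proximal control and 38.9, 56.9 and 51.2 FPKM in proximal differentiation libraries. Distal Acsf2 measured 13.1, 23.1 and 7.76 FPKM in control and 7.71, 3.40 and 4.83 FPKM in differentiation libraries. The media were separate at each end, and only the control libraries of the ends overlapped. The response was -1.25 ± 0.38 at the distal and 1.21 ± 0.38 at the proximal end, a difference of -2.46 ± 0.54, adjusted p = 0.0266. The Acsf2 call was lost without any 1 of distal control 1, distal differentiation 2, proximal control 2 or 3, or proximal differentiation 2 or 3 (adjusted p = 0.0613 to 0.0784). Baiap2l2, the membrane-shaping and actin-binding protein Pinkbar of intestinal epithelium (ENSMUSG00000018126, chromosome 15, 79142395 to 79169737), was at 13.8, 9.85 and 10.6 FPKM in proximal control and 30.1, 21.2 and 26.1 FPKM in proximal differentiation libraries. The distal values of Baiap2l2 were 18.5, 13.96 and 10.5 FPKM in control and 3.96, 5.85 and 3.37 FPKM in differentiation libraries. The response was -1.50 ± 0.23 at the distal and 1.11 ± 0.23 at the proximal end, a difference of -2.61 ± 0.32, adjusted p = 0.00118. Scpep1, a lysosomal serine carboxypeptidase (ENSMUSG00000000278, chromosome 11, 88814846 to 88846291), was at 39.4, 27.95 and 28.1 FPKM in proximal control and 56.5, 65.8 and 62.00 FPKM in proximal differentiation libraries. In distal organoids Scpep1 stood at 33.9, 24.5 and 22.5 FPKM with control and 11.7, 6.60 and 8.18 FPKM with differentiation medium. The response was -1.52 ± 0.21 at the distal and 0.94 ± 0.21 at the proximal end, a difference of -2.46 ± 0.30, adjusted p = 0.00116. For both Baiap2l2 and Scpep1, proximal differentiation was the highest group and distal differentiation the lowest.

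L1cam, a cell adhesion molecule (ENSMUSG00000031391, chromosome X, 72897384 to 72939711), was at 13.2, 5.79 and 6.71 FPKM in proximal control and 20.3, 21.1 and 23.7 FPKM in proximal differentiation libraries. Its distal libraries held 10.04, 8.06 and 5.98 FPKM in control and 2.50, 3.55 and 3.79 FPKM in differentiation medium. The response was -1.06 ± 0.26 at the distal and 1.32 ± 0.26 at the proximal end, a difference of -2.38 ± 0.37, adjusted p = 0.00449. Prkg2 is the membrane-bound cGMP-dependent kinase of the guanylin pathway (ENSMUSG00000029334, chromosome 5, 99077632 to 99185210). Prkg2 was at 15.9, 19.3 and 20.2 FPKM in proximal control and 36.3, 82.5 and 75.6 FPKM in proximal differentiation libraries. At the distal end, Prkg2 was at 4.15, 4.75 and 5.74 FPKM in control and 2.09, 1.18 and 3.33 FPKM in differentiation medium. The ends did not overlap in either medium, and the gap between them grew. The response was -0.92 ± 0.30 at the distal and 1.68 ± 0.30 at the proximal end, a difference of -2.60 ± 0.43, adjusted p = 0.00687. Akr1b8, an aldo-keto reductase (ENSMUSG00000029762, chromosome 6, 34331054 to 34345398), was at 85.3, 59.1 and 68.1 FPKM in proximal control and 109, 163 and 148 FPKM in proximal differentiation libraries. Distal Akr1b8 measured 77.5, 107 and 67.7 FPKM in control and 43.02, 38.1 and 51.6 FPKM in differentiation libraries. The response was -0.90 ± 0.22 at the distal and 0.97 ± 0.22 at the proximal end, a difference of -1.86 ± 0.30, adjusted p = 0.00636. The mid response was -1.63 for Acsf2, -1.71 for Baiap2l2, -1.58 for Scpep1, -0.74 for L1cam, and -0.29 for Akr1b8, all of the distal sign, and 0.15 for Prkg2. Scaled to summed reads, 5 of these 6 genes remained opposite, and the proximal rise of Acsf2 (0.90) was not called.

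Both responses reached 1 in size for 3 of these 40 genes. Single members picked after their values were seen are Idh1, the cytosolic isocitrate dehydrogenase (difference -1.68), Tkt, transketolase (-1.20), Gsr, glutathione reductase (-0.96), Gpd1, the cytosolic glycerol-3-phosphate dehydrogenase (-1.60), Slc25a4, a mitochondrial ADP/ATP carrier (-1.43), and Acsl4, a long-chain acyl-CoA synthetase (-1.24). Idh1 averaged 99.2 and 205 FPKM in proximal control and differentiation medium and 130.4 and 83.1 FPKM in the distal media. Without proximal differentiation replicate 1, 36 of the 40 were called. The class held 20 genes without proximal control replicate 2, 22 without proximal control replicate 3, 23 without proximal differentiation replicate 3, 24 without distal differentiation replicate 2 and 25 without proximal differentiation replicate 2. In mid organoids the response had the sign of the distal response in 52 of the 55 opposite genes and lay nearer to it in 53, as it did in 428 of the 455 other called genes. The same shares over all tested genes were not computed, so these counts have no background to be read against.

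**Figure D2:**
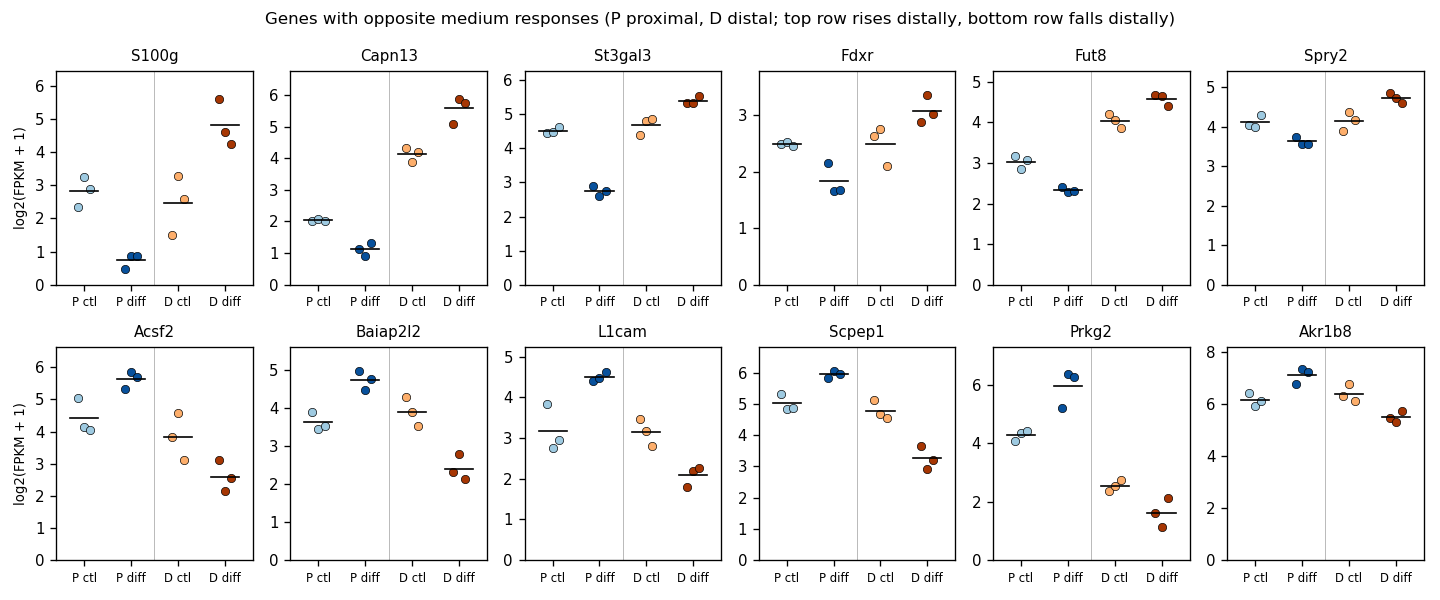
Expression, as log2(FPKM + 1), of 12 genes with opposite medium responses in each of the 12 libraries. Points are libraries, lines are group means, and each panel starts at 0. In every panel the 2 media are separate at each end and move in opposite directions, as for S100g, from 6.32 to 0.677 FPKM on average at the proximal end and from 5.17 to 29.5 FPKM at the distal end. The 12 genes were picked by called responses of unlike sign in these libraries. The directions are thus fixed by that choice, and some of the separation is built in.

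The largest difference of responses was that of Aqp8, a water channel (ENSMUSG00000030762, chromosome 7, 123061514 to 123067227). Aqp8 was at 0, 0.527 and 0.302 FPKM in proximal control and 0.191, 0.404 and 0.606 FPKM in proximal differentiation libraries. The distal values of Aqp8 were 12.4, 6.56 and 11.5 FPKM in control and 6377, 3297 and 2595 FPKM in differentiation libraries. The distal media did not overlap, and the proximal media did. The response was 8.46 ± 0.32 at the distal and 0.14 ± 0.32 at the proximal end, a difference of 8.31 ± 0.45, adjusted p = 2.5e-06. Car4, a carbonic anhydrase anchored to the cell surface, was at 0, 0 and 0 FPKM in proximal control and 0.429, 1.66 and 0.889 FPKM in proximal differentiation libraries and at 0.501, 0.900 and 0.626 FPKM in distal control and 311, 197 and 198 FPKM in distal differentiation libraries, a difference of 6.16 ± 0.32, adjusted p = 2.13e-06. Its proximal rise of 0.95 ± 0.23 was called too. Slc37a2, a sugar phosphate transporter, stayed at or under 0.0775 FPKM in all 6 proximal libraries, against 1.13, 4.70 and 0.219 FPKM in distal control and 119.7, 327 and 171 FPKM in distal differentiation libraries (6.31 ± 0.67, adjusted p = 0.00058). Tgm3, a transglutaminase, stayed at or under 0.0579 FPKM in the proximal libraries, against 13.5, 4.01 and 3.61 FPKM in distal control and 456, 312 and 227 FPKM in distal differentiation libraries (5.50 ± 0.53, adjusted p = 0.000263). Slpi, a secreted protease inhibitor, was at or under 0.101 FPKM proximally, against 2.71, 0.729 and 1.99 FPKM in distal control and 179.8, 61.4 and 31.1 FPKM in distal differentiation libraries (4.72 ± 0.69, adjusted p = 0.00323). The proximal mean of these 5 genes was under 1 FPKM in both media, as for 87 of the 215 genes with a larger distal rise. With limma-voom Aqp8 was called (adjusted p = 0.0214), while Slc37a2, Car4, Tgm3 and Slpi were not (adjusted p = 0.139, 0.258, 0.352 and 0.407).

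The 5 genes with the largest distal falls were all higher in distal than in proximal control libraries, with no overlap. They were picked by the size of the difference on the same values, so some of this separation is built in. The share of all tested genes without overlap was not counted. Trf, transferrin, was at 10.2, 7.11 and 9.40 FPKM in distal control and 0.0310, 0.0182 and 0.0436 FPKM in distal differentiation libraries, against 0.0360 to 0.127 FPKM in the proximal libraries (-3.31 ± 0.20, adjusted p = 4.74e-06). Cdo1, the cysteine dioxygenase of taurine synthesis, was at 35.1, 33.7 and 14.9 FPKM in distal control and 0.689, 0.515 and 1.80 FPKM in distal differentiation libraries, and at 0 to 0.388 FPKM proximally (-3.66 ± 0.44, adjusted p = 0.0011). In differentiation medium Cdo1 and Trf were under 2 FPKM in all 6 libraries of the ends. Ifitm3, an interferon-induced antiviral membrane protein, was at 23.9, 11.2 and 7.26 FPKM in distal control and 0.304, 0.267 and 0.213 FPKM in distal differentiation libraries and at 0.569, 1.09 and 0.617 FPKM in proximal control and 0, 0 and 0 FPKM in proximal differentiation libraries (-2.63 ± 0.44, adjusted p = 0.00694). Rgcc had a difference of -2.91 ± 0.17, adjusted p = 4.74e-06, with 0 reads in distal differentiation libraries, and the keratin Krt90 one of -2.62 ± 0.31, adjusted p = 0.00107. Krt90 fell in near-equal proportion at the ends, to 0.0312 of its control level distally and 0.0357 proximally. With limma-voom Trf and Rgcc were called (adjusted p = 0.00129 and 0.0158), and Cdo1, Ifitm3 and Krt90 were not (adjusted p = 0.346, 0.686 and 0.776). Over the 103 genes with a larger distal fall, the regional difference was narrower in differentiation medium for 33 and wider for 67.

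The 5 genes with the largest proximal rises had a distal mean under 1 FPKM in both media, as did 46 of the 103 genes with a larger proximal rise. Cyp4b1, a cytochrome P450 (ENSMUSG00000028713, chromosome 4, 115481922 to 115504920), was at 0.485, 0.595 and 0.265 FPKM in proximal control and 23.6, 70.6 and 37.4 FPKM in proximal differentiation libraries, at 0 in the 3 distal control libraries and at 0.502, 0.134 and 0.225 FPKM in distal differentiation libraries (-4.47 ± 0.42, adjusted p = 0.000256). Slc51a, a subunit of the basolateral bile acid exporter, was at 0.402, 0.463 and 0.280 FPKM in proximal control and 29.6, 29.6 and 23.3 FPKM in proximal differentiation libraries. Its 6 distal libraries stayed between 0.0149 and 0.794 FPKM, so the proximal differentiation libraries stood apart from all others (-3.77 ± 0.19, adjusted p = 2.13e-06). Slc13a1, a sodium sulfate cotransporter, was at 0.383, 0.455 and 0.186 FPKM in proximal control and 11.1, 29.7 and 23.9 FPKM in proximal differentiation libraries and at most 0.0133 FPKM distally (-3.97 ± 0.38, adjusted p = 0.000263). Prl2a1, a prolactin-family hormone (-4.29 ± 0.48, adjusted p = 0.000724), and Defb37, a beta-defensin (-3.27 ± 0.42, adjusted p = 0.00148), completed the 5 largest. None of these 5 was called with limma-voom (adjusted p = 0.105 for Slc51a to 0.632 for Cyp4b1), and reads of Prl2a1 and Defb37 can be shared with close paralogs.

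Among the larger proximal falls, the distal media overlapped for Ephb6, Anxa8, St6gal1 and Car8 and were separate for Stra6. Ephb6, a kinase-inactive Eph receptor (ENSMUSG00000029869, chromosome 6, 41582416 to 41597443), was at 5.57, 15.8 and 19.1 FPKM in proximal control and 0.447, 0.339 and 0.642 FPKM in proximal differentiation libraries. In distal organoids Ephb6 stood at 5.68, 4.93 and 12.7 FPKM with control and 7.84, 26.3 and 23.1 FPKM with differentiation medium. Only the proximal differentiation libraries stood apart. The response was 1.14 ± 0.50 at the distal and -3.15 ± 0.50 at the proximal end, a difference of 4.29 ± 0.70, adjusted p = 0.00636. Anxa8, an annexin, was at 102, 155 and 149 FPKM in proximal control and 25.2, 18.3 and 18.5 FPKM in proximal differentiation libraries, and between 94.9 and 241 FPKM in the 6 distal libraries (2.27 ± 0.42, adjusted p = 0.0113). St6gal1, a sialyltransferase like St3gal3, was at 6.03, 12.5 and 14.3 FPKM in proximal control and 1.79, 1.33 and 0.986 FPKM in proximal differentiation libraries, and between 0.476 and 2.99 FPKM distally (2.89 ± 0.52, adjusted p = 0.00975). Stra6, a receptor for retinol-binding protein, fell at both ends and left 0.0724, 0 and 0.00967 FPKM proximally and 0.0530, 0.124 and 0.174 FPKM distally (2.24 ± 0.46, adjusted p = 0.0197). Car8, an inactive relative of the carbonic anhydrases, had a difference of 1.75 ± 0.36, adjusted p = 0.0213. The Stra6 call was lost without any 1 of proximal control 2 or 3, or proximal differentiation 3 (adjusted p = 0.052 to 0.0609), and the Car8 call without any 1 of proximal control 2 or 3, or proximal differentiation 2 or 3 (adjusted p = 0.0556 to 0.0651). With limma-voom Ephb6, Anxa8 and St6gal1 were called (adjusted p = 0.0331, 0.0192 and 0.0296), and Stra6 and Car8 were not (adjusted p = 0.206 and 0.171).

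**Figure D3:**
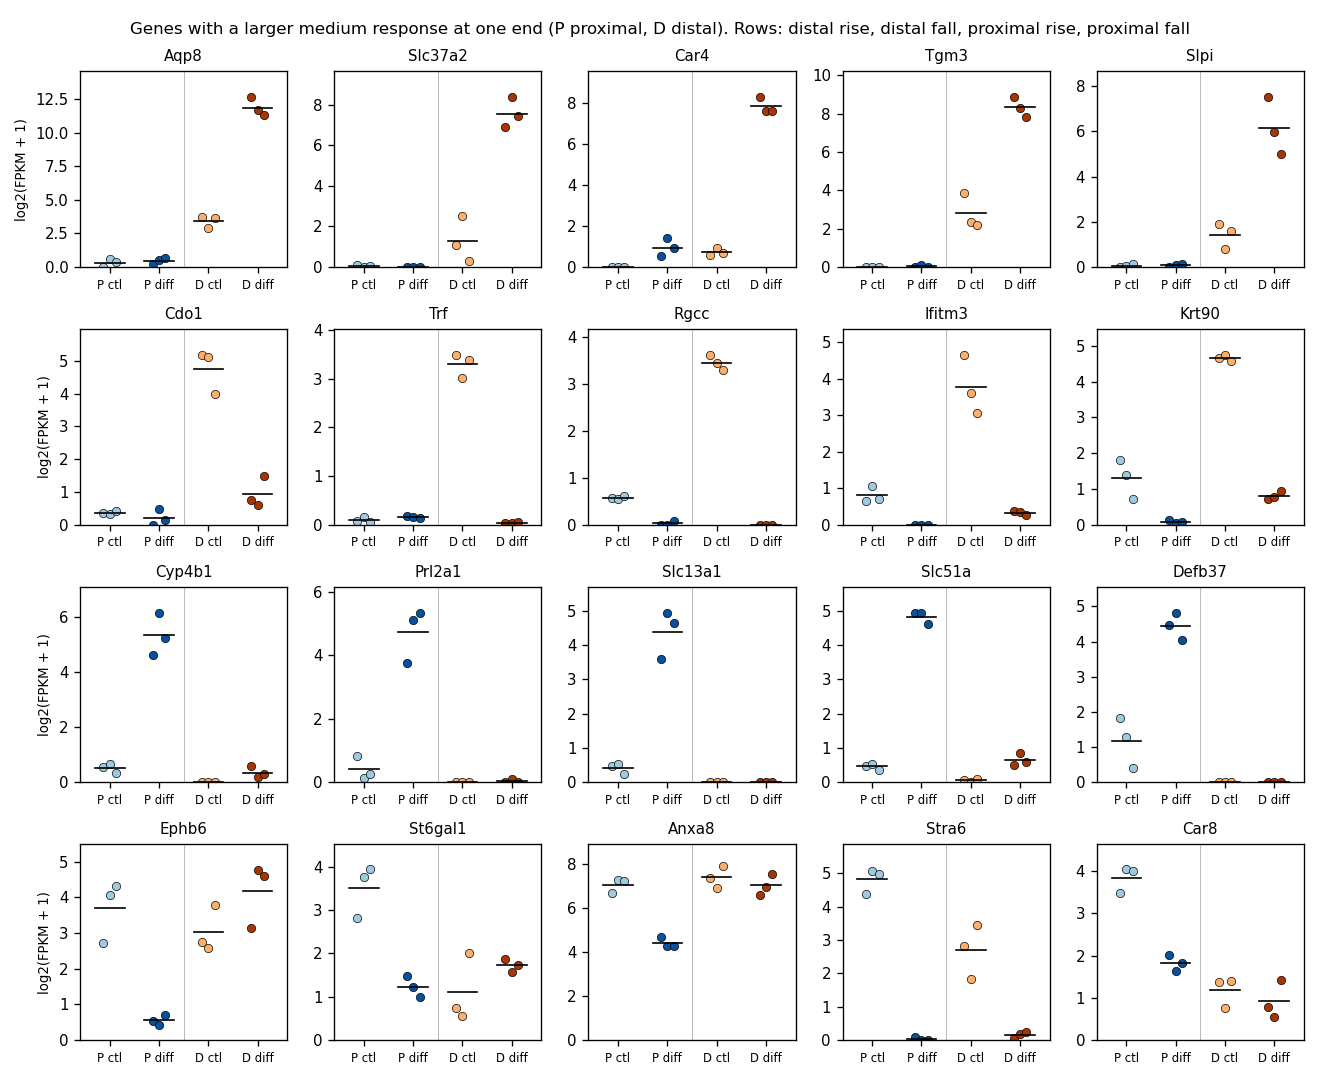
Expression, as log2(FPKM + 1), of the 5 genes with the largest difference of responses in each of 4 kinds, in each of the 12 libraries (points) with group means (lines), and axes that start at 0. The top row rises in distal organoids and the next row falls there, below it a row rises in proximal organoids, and the bottom row falls there. In the rows of rises the other end averages under 1 FPKM in both media, and Car4 also had a called proximal rise.

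Of 28 tested ion transport and chloride secretion genes 7 had a called difference above 0 and 2 below 0, with a median of 0.65 against -0.0083 over all tested genes. For this and the lists that follow, 2.12% of all tested genes were called above 0 and 1.97% below 0. Trpv6, the apical calcium channel that works with S100g (ENSMUSG00000029868, chromosome 6, 41597558 to 41613339), was at 0.0817, 0.317 and 0.395 FPKM in proximal control and 0, 0.0203 and 0 FPKM in proximal differentiation libraries. Its distal libraries held 1.89, 1.46 and 1.41 FPKM in control and 45.8, 34.5 and 40.7 FPKM in differentiation medium. Distal differentiation libraries stood far above the others for Trpv6 (4.32 ± 0.20, adjusted p = 1.26e-06). For S100g they were also the highest, by a smaller margin. Slc20a1, a sodium phosphate cotransporter, was at 7.85, 6.91 and 6.57 FPKM in proximal control and 9.90, 8.31 and 8.31 FPKM in proximal differentiation libraries and at 19.6, 14.6 and 14.7 FPKM in distal control and 159.8, 113 and 95.1 FPKM in distal differentiation libraries (2.53 ± 0.26, adjusted p = 0.000446). Slc34a2, another phosphate carrier (1.68 ± 0.26), and Slc26a2, a sulfate carrier (1.90 ± 0.39), also had differences above 0. Slc26a6, an anion exchanger (-1.51 ± 0.23), and Kcnk6, a potassium channel (-0.85 ± 0.17), had differences below 0. Slc9a3, a sodium/proton exchanger, rose 35.4-fold distally and 34.3-fold proximally in mean FPKM, and its called difference of 2.06 ± 0.51, adjusted p = 0.0458 was lost without any 1 of distal control 1 or 2, distal differentiation 1 or 2, proximal control 1, 2 or 3, or proximal differentiation 1 or 3 (adjusted p = 0.0821 to 0.108) and with limma-voom (adjusted p = 0.83). The calls above 0 numbered 5 to 9 with any library left out, and those below 0 numbered 1 to 4, with 4 without proximal differentiation replicate 1 and 1 without proximal control replicate 2 or 3 or proximal differentiation replicate 3.

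Among 16 sodium uptake and mineralocorticoid genes 2 were called above 0 and 0 below. Scnn1a, the alpha subunit of the epithelial sodium channel, was at 11.3, 11.02 and 10.1 FPKM in proximal control and 19.8, 18.2 and 15.9 FPKM in proximal differentiation libraries. At the distal end, Scnn1a was at 10.9, 10.98 and 10.9 FPKM in control and 68.1, 47.9 and 60.3 FPKM in differentiation medium. Its control libraries overlapped between the ends, and its rise was larger distally (1.63 ± 0.19, adjusted p = 0.0009). Atp12a, the colonic proton/potassium pump, was at 0.0480, 0 and 0 FPKM in proximal control and 2.19, 0.735 and 0.870 FPKM in proximal differentiation libraries and at 9.98, 6.63 and 2.21 FPKM in distal control and 676, 165 and 175 FPKM in distal differentiation libraries (4.29 ± 0.76, adjusted p = 0.00928). The sign turned with limma-voom, which gave -0.81 (adjusted p = 0.908). Nr3c2, the mineralocorticoid receptor, rose at both ends and had no called difference (0.50 ± 0.28, adjusted p = 0.368).

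Mucosal defence genes held 7 calls above 0 and 2 below 0 among 23 tested, with a median of 0.61. Without proximal differentiation replicate 1 the counts were the same and the median was 0.27. Limma-voom called 2 of the 23 above 0 and 0 below 0. Pigr, the receptor that carries secretory antibodies across the epithelium, was at 45.3, 28.4 and 21.6 FPKM in proximal control and 101, 95.03 and 90.2 FPKM in proximal differentiation libraries. Distal Pigr measured 28.5, 29.1 and 21.3 FPKM in control and 786, 619 and 343 FPKM in differentiation libraries. The rise was larger distally (2.73 ± 0.43, adjusted p = 0.00525) and was called with limma-voom too (adjusted p = 0.0118). Saa1, an acute-phase protein, rose 111-fold distally and 91.4-fold proximally (3.55 ± 0.76, adjusted p = 0.0238), a call that ended without any 1 of distal control 1 or 2, proximal control 2 or 3, or proximal differentiation 3 (adjusted p = 0.0561 to 0.0655) and with limma-voom (adjusted p = 0.89). Il18, an interleukin (1.58 ± 0.30), and Ccl28, a chemokine of mucosal plasma cell homing (1.38 ± 0.26), were also called above 0. Nox1, an NADPH oxidase of colon epithelium, fell at both ends (-2.62 ± 0.49, adjusted p = 0.0127), to 0.0151 and 0.0209 of its control level at the distal and proximal end, and limma-voom gave a difference of 0.0168. The 2 calls below 0, Nox1 and Saa3 (-1.21 ± 0.24), became 1 without proximal control replicate 2 or 3.

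Xenobiotic metabolism genes split, with 8 of 49 called above 0 and 5 below 0 (median 0.18). Without proximal differentiation replicate 1, 6 were called above 0 and 5 below 0 (median 0.015). Ces2a, a carboxylesterase, was at 2.18, 0.981 and 0.709 FPKM in proximal control and 119, 96.9 and 74.8 FPKM in proximal differentiation libraries and at 2.09, 2.61 and 1.49 FPKM in distal control and 1082, 912 and 674 FPKM in distal differentiation libraries (2.73 ± 0.37, adjusted p = 0.00204). Abcb1a and Abcg2, drug efflux pumps, had differences of 1.27 ± 0.25 and 1.58 ± 0.32. Gsta4, a glutathione transferase, had a difference below 0 (-1.96 ± 0.35), as had Cyp4b1, Akr1b8 and the glucuronosyltransferase genes Ugt2b36 (-1.65 ± 0.23) and Ugt2b5 (-1.62 ± 0.18). Reads of the Ces2, Cyp2c and Ugt2b families can be shared between close paralogs. The 8 calls above 0 became 3 without proximal control replicate 2 or proximal differentiation replicate 3, 4 without distal control replicate 1, and 5 without distal differentiation replicate 2 or proximal control replicate 1 or 3. Adh1, an alcohol dehydrogenase, was at 0.490, 0.870 and 0.348 FPKM in proximal control and 1.35, 1.61 and 2.09 FPKM in proximal differentiation libraries and at 46.3, 77.8 and 14.6 FPKM in distal control and 618, 737 and 284 FPKM in distal differentiation libraries (2.93 ± 0.71, adjusted p = 0.043), a call lost without any 1 of distal control 1, distal differentiation 1 or 2, proximal control 1, 2 or 3, or proximal differentiation 1, 2 or 3 (adjusted p = 0.0702 to 0.115). The call of Cyp2c68 (2.15 ± 0.47, adjusted p = 0.0261) was lost without any 1 of distal control 1, proximal control 1, 2 or 3, or proximal differentiation 1, 2 or 3 (adjusted p = 0.0522 to 0.0686). Cyp4f14, a cytochrome P450 (2.41 ± 0.52, adjusted p = 0.0243), was lost without any 1 of distal control 1, distal differentiation 2, proximal control 2, or proximal differentiation 3 (adjusted p = 0.0501 to 0.0661). Limma-voom called only 3 of the 49 genes above 0 and 3 below 0, and the calls of Adh1 and Cyp2c68 were among those that ended (adjusted p = 0.496 and 0.846).

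Of 27 tested cholesterol synthesis and uptake genes 11 had a called difference below 0 and 0 above 0, and the median difference was -0.96 against -0.0083 over all tested genes. The median response was 0.034 distally and 1.11 proximally, with 21 called rises and 0 called falls at the proximal end and 7 rises and 4 falls at the distal end. Over all tested genes, called rises and falls were 25.7% and 23.1% proximally and 29.3% and 29.3% distally, so the distal rises lay near that share. The promoters of Hmgcs1, Mvd, Lss and Cyp51 follow as a description of sequence, and their part in the responses was not tested. Hmgcs1, which had no called difference of responses, was the only member with a match to the sterol regulatory element searched. The others are called members with a CCAAT match. The 250 bases before each start site are RefSeq sequences of GRCm38.p6, a build other than that of the deposited table, printed 5′ to 3′ on the gene's strand. Capitals mark matches, on either strand, to TCACNCCAC or to CCAAT, and no matches overlap in these 4.
Hmgcs1: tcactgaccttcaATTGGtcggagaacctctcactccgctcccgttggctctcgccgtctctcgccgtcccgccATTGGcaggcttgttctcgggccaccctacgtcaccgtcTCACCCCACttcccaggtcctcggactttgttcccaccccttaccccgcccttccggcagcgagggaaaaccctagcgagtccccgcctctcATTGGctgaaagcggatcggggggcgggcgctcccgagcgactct
Mvd: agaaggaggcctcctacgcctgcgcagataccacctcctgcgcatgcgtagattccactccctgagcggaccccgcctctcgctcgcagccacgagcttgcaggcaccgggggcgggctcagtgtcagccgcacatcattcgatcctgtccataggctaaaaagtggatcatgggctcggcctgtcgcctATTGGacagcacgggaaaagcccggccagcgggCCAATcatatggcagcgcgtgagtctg
Lss: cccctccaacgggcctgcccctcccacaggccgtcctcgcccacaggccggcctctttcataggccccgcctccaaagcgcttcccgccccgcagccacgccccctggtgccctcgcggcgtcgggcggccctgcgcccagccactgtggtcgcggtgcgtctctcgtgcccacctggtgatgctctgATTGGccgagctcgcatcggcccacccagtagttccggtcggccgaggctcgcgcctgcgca
Cyp51: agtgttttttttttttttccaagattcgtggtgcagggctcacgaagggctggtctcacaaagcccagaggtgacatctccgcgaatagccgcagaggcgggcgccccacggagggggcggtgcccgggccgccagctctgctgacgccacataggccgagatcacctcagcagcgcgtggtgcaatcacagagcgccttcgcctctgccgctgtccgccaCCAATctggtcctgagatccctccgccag
Their positions are chr13:119690101-119690350, plus strand for Hmgcs1, chr8:122443423-122443672, minus strand for Mvd, chr10:76531355-76531604, plus strand for Lss and chr5:4104698-4104947, minus strand for Cyp51. The promoter table held 19 of the 27 genes. TCACNCCAC was found for 1 of the 19, in Hmgcs1 at position -137 from the start, and for 1.22% of the 27025 genes in the table. CCAAT, a motif chosen after values were seen, was found for 17 of the 19 (all but Acat2 and Scap) and for 37.5% of all genes in the table. A match describes the sequence only.

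The ends did not overlap in differentiation medium for any of the 11 called genes, while their control libraries overlapped for all but Mvd, Idi1 and Npc1l1. These 11 were picked by a call on the same values, so some separation is built in. Of all tested genes, 23.5% were called between the ends in differentiation medium and 6.82% in control medium. The share of all tested genes without overlap was not counted. Mvd, mevalonate diphosphate decarboxylase (ENSMUSG00000006517, chromosome 8, 123160340 to 123170161), had opposite responses, at 52.2, 30.5 and 29.4 FPKM in proximal control and 82.3, 80.8 and 74.5 FPKM in proximal differentiation libraries. The distal values of Mvd were 60.7, 52.7 and 53.6 FPKM in control and 39.9, 33.4 and 38.4 FPKM in differentiation libraries. The response was -0.57 ± 0.19 at the distal and 1.11 ± 0.19 at the proximal end, a difference of -1.68 ± 0.27, adjusted p = 0.00538. Lss, lanosterol synthase, was at 19.8, 9.57 and 8.30 FPKM in proximal control and 30.4, 28.9 and 29.7 FPKM in proximal differentiation libraries and at 12.2, 12.8 and 12.7 FPKM in distal control and 9.82, 9.01 and 10.2 FPKM in distal differentiation libraries (-1.62 ± 0.33, adjusted p = 0.0196). Cyp51, which demethylates lanosterol, was at 83.6, 39.6 and 40.2 FPKM in proximal control and 131, 166 and 157 FPKM in proximal differentiation libraries and at 77.6, 69.05 and 66.1 FPKM in distal control and 80.4, 59.9 and 66.7 FPKM in distal differentiation libraries (-1.58 ± 0.35, adjusted p = 0.0285). For both, the proximal differentiation libraries lay above all others. Acat2, acetoacetyl-CoA thiolase, was at 38.2, 19.7 and 16.7 FPKM in proximal control and 54.5, 35.4 and 33.7 FPKM in proximal differentiation libraries and at 34.4, 45.00 and 43.5 FPKM in distal control and 18.8, 12.8 and 21.9 FPKM in distal differentiation libraries (-1.94 ± 0.42, adjusted p = 0.0261).

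Other called members were Npc1l1, a cholesterol importer (-1.41 ± 0.22), Nsdhl (-1.37 ± 0.28), Idi1 (-1.33 ± 0.27), Fdft1, squalene synthase (-1.14 ± 0.24), and Srebf2, the transcription factor of the pathway (-0.97 ± 0.18). The Npc1l1 call ended with limma-voom (adjusted p = 0.456). Srebf2 was at 64.97, 69.4 and 68.6 FPKM in distal control and 41.8, 39.2 and 47.8 FPKM in distal differentiation libraries, and its proximal media overlapped. Insig1 and Hmgcs1 rose at both ends without a called difference (-0.40 ± 0.54, adjusted p = 0.749, and -0.37 ± 0.24, adjusted p = 0.457). The mean log2(FPKM + 1) over the 27 genes was 4.86 in proximal control replicate 1 against 4.27 and 4.22 in replicates 2 and 3, 5.47 to 5.53 in proximal differentiation, 4.65 to 4.73 in distal control and 4.73 to 4.96 in distal differentiation libraries. The 11 calls became 17 without proximal control replicate 1, 4 without proximal control replicate 2 or distal differentiation replicate 2, 5 without proximal control replicate 3, proximal differentiation replicate 3 or distal control replicate 2, and 10 without proximal differentiation replicate 1. Limma-voom called 10 of the 27, all below 0, and the difference was below 0 for 25 of the 27 genes. Among single members, Cyp51 was lost without any 1 of distal control 1 or 2, distal differentiation 2 or 3, proximal control 2 or 3, or proximal differentiation 2 or 3 (adjusted p = 0.0511 to 0.0823). Acat2 was lost without any 1 of distal control 2, distal differentiation 2, or proximal control 2 or 3 (adjusted p = 0.0631 to 0.0776), Fdft1 without any 1 of distal control 1 or 2, distal differentiation 2, proximal control 2 or 3, or proximal differentiation 2 or 3 (adjusted p = 0.0533 to 0.0732), Nsdhl without any 1 of distal control 2, distal differentiation 2, proximal control 2 or 3, or proximal differentiation 3 (adjusted p = 0.0521 to 0.064), Idi1 without any 1 of distal control 1 or 2, distal differentiation 2, proximal control 2 or 3, or proximal differentiation 3 (adjusted p = 0.0503 to 0.0645) and Lss without any 1 of distal differentiation 2, proximal control 2, or proximal differentiation 3 (adjusted p = 0.0519 to 0.0601).

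**Figure D4:**
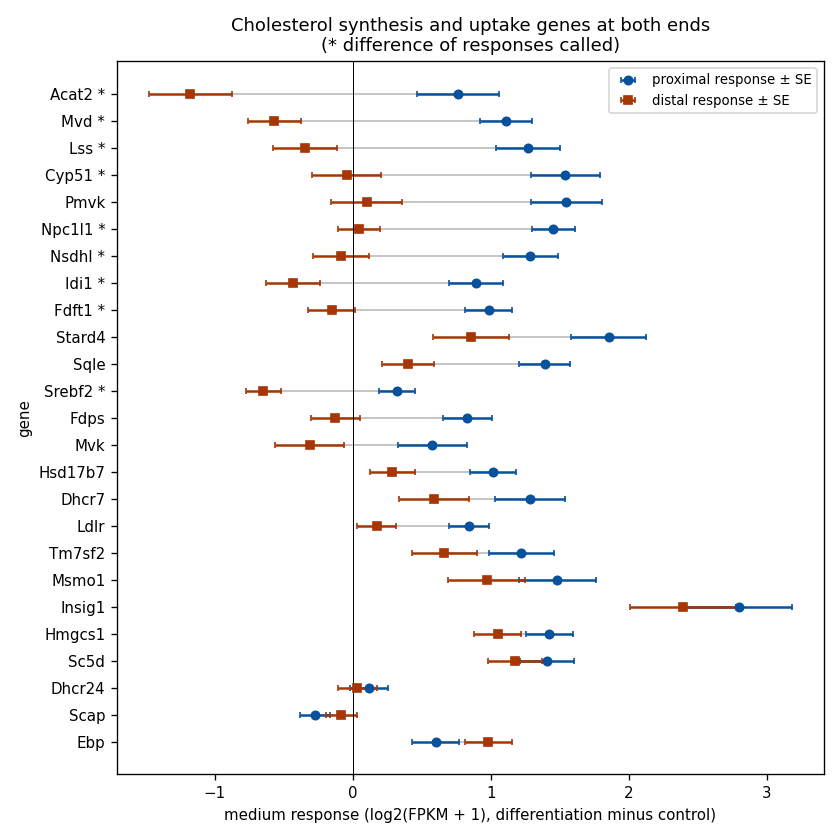
Medium responses of 25 of the 27 cholesterol synthesis and uptake genes at the proximal (blue circles) and distal (brown squares) end, as differentiation minus control on log2(FPKM + 1), with SE bars from the fit (n = 3 libraries per group). The distal response lies below the proximal one for 23 of the 25 plotted genes, the exceptions being Ebp and Scap, and stars mark the 9 called genes among them.

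Fatty acid synthesis genes held 4 calls below 0 and 0 above among 22 tested (median -0.61). Fasn, fatty acid synthase, was at 58.6, 50.6 and 49.2 FPKM in proximal control and 55.9, 39.96 and 36.4 FPKM in proximal differentiation libraries and at 55.5, 68.3 and 58.3 FPKM in distal control and 18.03, 20.5 and 27.1 FPKM in distal differentiation libraries (-1.17 ± 0.26, adjusted p = 0.0283). Elovl5, a fatty acid elongase, was at 36.5, 26.3 and 25.6 FPKM in proximal control and 34.1, 29.9 and 29.6 FPKM in proximal differentiation libraries and at 33.7, 34.4 and 28.6 FPKM in distal control and 12.5, 13.6 and 16.1 FPKM in distal differentiation libraries (-1.24 ± 0.22, adjusted p = 0.00863). In both the proximal media overlapped and the distal differentiation libraries were lowest. Elovl1, which elongates very long chains, instead rose proximally (-1.002 ± 0.19, adjusted p = 0.0153), and Lpin1, a phosphatidate phosphatase, had opposite responses (-1.31 ± 0.25, adjusted p = 0.015). The 4 calls became 7 without proximal control replicate 1 and 2 without proximal control replicate 2, where Lpin1 and Fasn were not called (adjusted p = 0.0516 for Lpin1). Fasn was lost without any 1 of distal control 1 or 2, distal differentiation 1 or 2, proximal control 2 or 3, or proximal differentiation 2 (adjusted p = 0.0506 to 0.0832).

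Among 41 PPAR target and fatty acid oxidation genes 2 were called above 0 and 2 below (median -0.064). Plin2, a lipid droplet coat protein, had opposite responses, at 29.7, 63.2 and 60.1 FPKM in proximal control and 21.3, 26.8 and 25.9 FPKM in proximal differentiation libraries and at 33.9, 29.8 and 68.1 FPKM in distal control and 93.7, 75.6 and 84.3 FPKM in distal differentiation libraries (1.97 ± 0.45, adjusted p = 0.0331). Plin2 lost its call in 10 of 12 omissions of a library, namely without any 1 of distal control 1 or 2, distal differentiation 1, 2 or 3, proximal control 2 or 3, or proximal differentiation 1, 2 or 3 (adjusted p = 0.0555 to 0.0938). Creb3l3, a transcription factor of lipid metabolism, rose more distally (2.43 ± 0.50, adjusted p = 0.0196), a call lost without any 1 of distal control 1, or proximal differentiation 2 or 3 (adjusted p = 0.0514 to 0.0574) and with limma-voom (adjusted p = 0.135). Acaa1b, a peroxisomal thiolase, was called below 0 (-1.63 ± 0.28, adjusted p = 0.00811) although it rose 15.5-fold distally and 12.2-fold proximally, and limma-voom gave 0.69 (adjusted p = 0.759). The 2 calls above 0 remained 2 in number only without distal control replicate 3 or proximal control replicate 1, and became 0 without proximal differentiation replicate 2 or 3 and 1 in the other omissions of a library.

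The series title names nicotinic acid, and among 17 tested NAD and nicotinic acid genes 2 were called above 0 and 0 below (median 0.15). Slc5a8, the SMCT1 transporter, which takes up butyrate and nicotinate with sodium, was at 1.05, 0.564 and 0.549 FPKM in proximal control and 3.27, 4.69 and 3.58 FPKM in proximal differentiation libraries. In distal organoids Slc5a8 stood at 0.360, 0.861 and 0.692 FPKM with control and 22.98, 46.98 and 15.04 FPKM with differentiation medium. It rose at both ends, more at the distal end (2.53 ± 0.45, adjusted p = 0.00966), and was not called with limma-voom (adjusted p = 0.101). Nmnat3, a mitochondrial enzyme of NAD synthesis, was at 1.03, 1.03 and 1.42 FPKM in proximal control and 0.783, 0.750 and 0.676 FPKM in proximal differentiation libraries. Its distal libraries held 1.06, 0.898 and 0.995 FPKM in control and 4.10, 2.89 and 2.02 FPKM in differentiation medium. Its distal differentiation libraries were the highest (1.29 ± 0.25, adjusted p = 0.0144). Naprt, the entry enzyme from nicotinic acid to NAD, rose at both ends and overlapped between them in each medium (0.15 ± 0.47, adjusted p = 0.902). Hcar2, a nicotinic acid receptor, did not pass the filter.

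In the brush border and amino acid transport list 2 of 28 genes were called above 0 and 3 below. Slc6a19, a neutral amino acid carrier, was at 0.0197, 0.277 and 0 FPKM in distal control and 11.7, 14.6 and 5.93 FPKM in distal differentiation libraries and at most 0.518 FPKM proximally (2.87 ± 0.35, adjusted p = 0.00121). Slc15a1, the peptide transporter PEPT1, had 0 reads in proximal control libraries and reached 5.06, 10.4 and 6.40 FPKM in proximal differentiation libraries. At the distal end, Slc15a1 was at 0.353, 0.900 and 1.01 FPKM in control and 80.2, 76.2 and 62.6 FPKM in differentiation medium. The called difference of 2.41 ± 0.31, adjusted p = 0.00154 turned sign with limma-voom, which gave -3.48 (adjusted p = 0.156). Sis, sucrase-isomaltase, and Anpep, aminopeptidase N, rose proximally from near 0 and stayed near 0 distally (-2.34 ± 0.27, adjusted p = 0.000792, and -1.89 ± 0.41, adjusted p = 0.0261). Anpep was lost without any 1 of distal control 1 or 2, distal differentiation 2, or proximal control 2 or 3 (adjusted p = 0.0557 to 0.0667). Slc7a9, a cystine carrier, rose 23.4-fold distally and 31.4-fold proximally (-1.42 ± 0.17, adjusted p = 0.0011). None of these 5 was called with limma-voom.

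Posterior Hox genes set the positional identity of the hindgut. Of 8 tested, 2 were called above 0 and 2 below. Hoxb13 was at 61.4, 80.3 and 55.98 FPKM in distal control and 219, 193 and 132 FPKM in distal differentiation libraries (1.43 ± 0.25, adjusted p = 0.00945). Hoxa13 was at 17.7, 22.7 and 18.7 FPKM in distal control and 51.5, 54.6 and 50.1 FPKM in distal differentiation libraries (1.36 ± 0.15, adjusted p = 0.000727). Hoxd13 was at 58.2, 74.2 and 41.4 FPKM in distal control and 19.6, 28.5 and 20.7 FPKM in distal differentiation libraries (-1.28 ± 0.27, adjusted p = 0.0238), and Hoxa9 at 10.3, 13.3 and 14.7 FPKM in distal control and 2.25, 3.66 and 4.94 FPKM in distal differentiation libraries (-1.60 ± 0.28, adjusted p = 0.00914). Hoxb13, Hoxa13 and Hoxd13 had 0 reads in the 6 proximal libraries, so the difference is the distal response alone and no proximal fold exists. Hoxd13 was lost without any 1 of distal control 1, distal differentiation 1, proximal control 2 or 3, or proximal differentiation 2 or 3 (adjusted p = 0.0502 to 0.0643), and limma-voom called none of the 4 (adjusted p = 0.48 for Hoxa13 to 0.654 for Hoxb13). Osr2, a transcription factor, was the counterpart, with 0 reads in the 6 distal libraries and 7.21 to 14.4 FPKM in proximal control and 38.3, 48.1 and 41.8 FPKM in proximal differentiation libraries (-1.96 ± 0.27, adjusted p = 0.00204), and its call ended with limma-voom too (adjusted p = 0.611). Hnf4g, a nuclear receptor of enterocytes, was at 8.43, 6.26 and 5.64 FPKM in proximal control and 36.1, 42.03 and 48.7 FPKM in proximal differentiation libraries and at 6.14, 4.94 and 4.10 FPKM in distal control and 5.99, 11.3 and 10.3 FPKM in distal differentiation libraries (-1.76 ± 0.32, adjusted p = 0.0099). Cdx2, a transcription factor of the intestinal epithelium, rose at both ends without a called difference (-0.079 ± 0.37, adjusted p = 0.936). Of 24 regional transcription factors 2 were called above 0, among them Creb3l3, and 2 below (Osr2 and Hnf4g).

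Of 35 surface colonocyte genes 7 were called above 0 and 3 below (median 0.58), while 32 rose distally and 31 proximally. Among all tested genes 29.3% were called as distal rises and 25.7% as proximal rises. Without proximal differentiation replicate 1, 6 of the 35 were called above 0 and 3 below (median 0.27). Limma-voom called 4 of the 35 above 0 and 0 below. Guca2b, the hormone uroguanylin, was at 4.36, 3.83 and 1.58 FPKM in proximal control and 26.9, 62.2 and 39.7 FPKM in proximal differentiation libraries. Distal Guca2b measured 3.74, 1.81 and 3.02 FPKM in control and 5.45, 1.60 and 3.49 FPKM in differentiation libraries. The proximal media were separate and the distal media overlapped (-3.19 ± 0.56, adjusted p = 0.00896). Krt20 rose at both ends without a called difference (0.91 ± 0.79, adjusted p = 0.601), as did Car1 (-2.27 ± 0.69, adjusted p = 0.101). Of 22 goblet genes 2 were called above 0, Bcas1 (1.95 ± 0.37, adjusted p = 0.014) and Capn9 (1.41 ± 0.24, adjusted p = 0.00805), and 0 below. Muc2, the gel-forming mucin, and Zg16, a goblet granule lectin, had differences of 0.74 ± 0.50, adjusted p = 0.476 and -0.31 ± 0.86, adjusted p = 0.891. Of 9 enteroendocrine genes Tac1 (2.79 ± 0.45, adjusted p = 0.00555) and Insl5 (1.84 ± 0.42, adjusted p = 0.0337) were called above 0 and Sct, secretin (-1.65 ± 0.41, adjusted p = 0.0484), below. Insl5 was lost without any 1 of distal control 1 or 2, proximal control 1, 2 or 3, or proximal differentiation 1, 2 or 3 (adjusted p = 0.0522 to 0.0844), and Sct without any 1 of distal control 1, 2 or 3, distal differentiation 1, 2 or 3, or proximal control 1, 2 or 3 (adjusted p = 0.0694 to 0.128). With limma-voom the calls of Guca2b, Capn9, Tac1, Insl5 and Sct ended (adjusted p = 0.054, 0.211, 0.618, 0.38 and 0.166).

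Of 30 mitosis genes 30 had a called fall at the distal end and 1 at the proximal end, against 29.3% and 23.1% of all tested genes. For the difference between the ends 0 were called with limma, 0 with limma-voom and 9 had an unadjusted p under 0.05, all below 0, against 9.3% of all tested genes below 0 at that p. The median difference was -1.35, and -0.80 without proximal differentiation replicate 1. The mean log2(FPKM + 1) of the list was 2.82 in proximal differentiation replicate 1 and 0.72 and 1.04 in replicates 2 and 3, against 2.04 to 3.22 in proximal control, 3.11 to 3.75 in distal control and 0.61 to 1.48 in distal differentiation libraries. Proximal differentiation replicate 1 thus lay inside the proximal control range. Of 30 DNA replication genes only Pola2, a subunit of the primase complex, was called (-1.26 ± 0.25, adjusted p = 0.0171), a call lost without any 1 of proximal control 2 or 3 (adjusted p = 0.0546 to 0.0567). Mki67, a marker of cycling cells, was at 19.3, 10.4 and 8.81 FPKM in proximal control and 12.6, 0.714 and 2.03 FPKM in proximal differentiation libraries and at 21.2, 39.3 and 16.3 FPKM in distal control and 0.870, 0.865 and 4.15 FPKM in distal differentiation libraries (-1.58 ± 0.96, adjusted p = 0.423). Of 20 crypt stem and Wnt feedback genes 17 fell at each end, against 29.3% of all tested genes distally and 23.1% proximally. Of the 20, only Smoc2 had a called difference (-0.85 ± 0.18, adjusted p = 0.0238), lost without any 1 of distal control 1 or 2, distal differentiation 2, proximal control 2 or 3, or proximal differentiation 2 (adjusted p = 0.0555 to 0.0757) and with limma-voom (adjusted p = 0.428). Lgr5, the receptor of crypt base stem cells, fell to at most 0.0705 FPKM at either end (0.04 ± 0.17, adjusted p = 0.929).

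The 13 genes of the mitochondrial genome had a median difference of 1.16, with all 13 above 0, yet 0 were called with limma and 0 with limma-voom, and 7 had an unadjusted p under 0.05, against 8.82% of all tested genes above 0 at that p. The mean log2(FPKM + 1) was 7.47 to 7.96 in proximal control, 7.89 to 8.15 in proximal differentiation, 7.87 to 8.23 in distal control and 9.19 to 9.86 in distal differentiation libraries, so the distal differentiation libraries did not overlap the other groups. Of 50 tested nuclear genes of oxidative phosphorylation 0 were called with limma or with limma-voom, and 1 had an unadjusted p under 0.05 (median 0.29). Likewise 0 genes were called with either fit among 22 interferon and MHC genes, 24 ER stress genes, 22 amino acid response genes, 22 immediate early genes, 27 hypoxia and glycolysis genes and 19 keratins and claudins, where 0 to 3 genes per list had an unadjusted p under 0.05.

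Of 15 retinoid and folate genes 3 were called above 0 and 0 below: Stra6, Rbp2, a retinol-binding protein (1.71 ± 0.36, adjusted p = 0.0232), and Cyp26b1, which degrades retinoic acid (1.68 ± 0.41, adjusted p = 0.042). Rbp2 rose at both ends, at 0.267, 0.337 and 0.807 FPKM in proximal control and 16.2, 20.9 and 15.7 FPKM in proximal differentiation libraries and at 0.410, 0.596 and 2.03 FPKM in distal control and 75.2, 85.4 and 73.9 FPKM in distal differentiation libraries. The Rbp2 call was lost without any 1 of distal control 1 or 2, distal differentiation 2, proximal control 2 or 3, or proximal differentiation 3 (adjusted p = 0.0515 to 0.0652), and the Cyp26b1 call without any 1 of distal control 1, 2 or 3, distal differentiation 1, 2 or 3, proximal control 3, or proximal differentiation 1, 2 or 3 (adjusted p = 0.0523 to 0.108). Of 21 lipid uptake and bile acid genes 2 were called above 0, Plin2 and Apoa4, an apolipoprotein (2.29 ± 0.46, adjusted p = 0.018), and 3 below, Slc51a, Hnf4g and Npc1l1. Apoa4 had 0 reads in both controls, and the call ended without any 1 of proximal control 2, or proximal differentiation 3 (adjusted p = 0.0509 to 0.0536). Of 10 small intestine and Paneth genes 3 were called above 0 (Itln1, Rbp2 and Apoa4) and 1 below (Sis). The Itln1 call, a lectin (1.13 ± 0.28, adjusted p = 0.0434), was lost without any 1 of distal control 1 or 2, distal differentiation 2 or 3, proximal control 1, 2 or 3, or proximal differentiation 2 or 3 (adjusted p = 0.05 to 0.13). With limma-voom the calls of Rbp2, Apoa4 and Itln1 ended (adjusted p = 0.36, 0.301 and 0.0534).

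Of 14 TGF-beta and BMP response genes Skil, a repressor of SMAD signalling, was called above 0, at 7.99, 8.41 and 10.1 FPKM in proximal control and 2.68, 2.72 and 3.53 FPKM in proximal differentiation libraries and at 9.74, 8.14 and 12.1 FPKM in distal control and 9.55, 7.86 and 10.7 FPKM in distal differentiation libraries (1.23 ± 0.23, adjusted p = 0.0124). Tgfbi, a secreted matrix protein, was called below 0, at 0.478, 0.687 and 0.190 FPKM in proximal control and 4.62, 11.3 and 7.76 FPKM in proximal differentiation libraries and at most 0.0801 FPKM distally (-2.52 ± 0.34, adjusted p = 0.00204), a call that ended with limma-voom (adjusted p = 0.358). Of 31 fetal-like, injury and YAP target genes only Anxa8 was called. Of 10 anterior and central Hox genes 0 were called with limma and 1 with limma-voom, and 3 had an unadjusted p under 0.05. Both tuft cell genes tested had no call in either fit and no unadjusted p under 0.05.

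**Figure D5:**
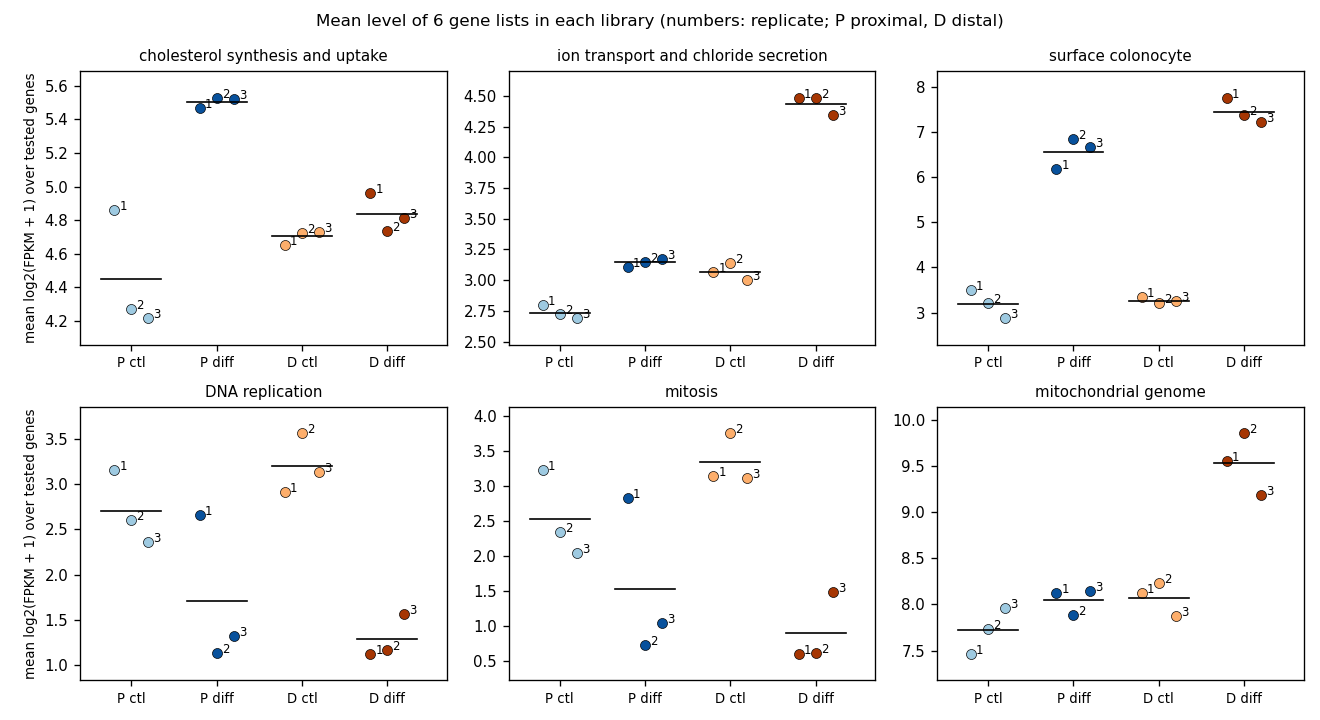
Mean log2(FPKM + 1) over the tested genes of 6 lists in each of the 12 libraries (points, numbered by replicate) with group means (lines). The axes do not start at 0. Proximal differentiation libraries are highest for cholesterol synthesis (5.47 to 5.53), distal differentiation libraries are highest for ion transport (4.35 to 4.49) and mitochondrial genes (9.19 to 9.86), and proximal differentiation replicate 1 lies among the proximal controls for mitosis (2.82) and DNA replication (2.66).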

How the data were processed

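RNA of the organoids was poly-A selected, and the authors deposited FPKM per gene (the submitters' processing notes name HISAT2 2.0.5, featureCounts 1.5.0-p3 and mm39). Whether the libraries keep strand is not stated, so overlapping antisense genes cannot be told apart, and reads of close paralogs may be shared. FPKM times gene length gave whole reads for 100.0% of values (tolerance 0.001), 12827751 to 19668665 per library, so counting error is small except near 0. These reads summed to 0.831 to 1.32 times the library size behind the FPKM.

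Genes with at least 1 FPKM in at least 3 of the 12 libraries were fitted as 4 group means on log2(FPKM + 1) with limma 3.58.1 in R 4.3.3 (8 residual degrees of freedom). P-values were adjusted by Benjamini-Hochberg over all 12461 genes and called under 0.05. Where the text names an alternative setting or an omitted library, the adjusted p comes from that separate fit, adjusted over the genes tested in it. A response was called by the same rule within each end. The authors' FPKM scale was kept. Promoters and figures used Python 3.11.15 with pandas 2.3.3, numpy 2.4.6 and matplotlib 3.10.9. The fits were tested on simulated data.

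Named genes were protein-coding genes called with and without proximal differentiation replicate 1 and reaching a group mean of 5 FPKM: 6 per direction of opposite response by the smaller response, and 5 per kind of larger response by the difference. Up to 5 called members per list and a set of always-named genes were added. Other list members were named after their values were seen. Some genes that these rules name are not reported here. The members and lists were chosen with earlier results of these data known. Alternatives were another pseudocount, filters, scalings, all 18 libraries, a replicate block, limma-voom on recovered reads and each library left out.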

Additional observations from a re-analysis of the deposited data

Results flagged for a closer look

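The medium response ran in opposite directions at the ends for 55 genes, each with a called difference, a called rise at one end and a called fall at the other (limma with Benjamini-Hochberg adjustment). Scaled to summed reads, 18 of the 55 remained opposite and 46 kept a called difference. Among the genes named for a distal rise and a proximal fall, the difference of responses was 4.45 for S100g, 2.38 for Capn13, 2.47 for St3gal3, 1.25 for Fdxr, 1.23 for Fut8 and 1.08 for Spry2, on log2(FPKM + 1). Among those named for a distal fall and a proximal rise it was -2.46 for Acsf2, -2.61 for Baiap2l2, -2.38 for L1cam, -2.46 for Scpep1, -2.60 for Prkg2 and -1.86 for Akr1b8.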

How the results depend on the processing

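Of 81 counts recomputed under the 9 settings that kept all libraries, 55 stayed within 1.5 times and 26 moved further. With all 18 libraries in the fit, calls rose to 1050 (523 above and 527 below 0), with 24 genes of distal rise and proximal fall, 698 larger distally, 273 larger proximally, 858 with a wider and 135 with a narrower regional difference. With a pseudocount of 0.1 there were 328 calls, 163 above 0, 188 larger distally, 85 larger proximally, 280 wider and 35 narrower. Limma-voom gave 235 calls (112 above and 123 below 0), 125 larger distally, 55 larger proximally, 198 wider and 24 narrower. A filter of 5 FPKM gave 79 larger proximally and 32 narrower, and no filter 22 of distal fall and proximal rise and 102 narrower. The cause of these shifts was not tested.

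With 1 library left out, calls ranged from 268 to 613, those above 0 from 149 to 310 and those below 0 from 119 to 303. Genes of distal rise and proximal fall ranged from 5 to 20, those of distal fall and proximal rise from 20 to 47, those larger distally from 184 to 410, those larger proximally from 59 to 214, wider from 227 to 495 and narrower from 34 to 101.

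Deviations of same-numbered libraries were correlated over 0.1 in 3 of 3 pairs of distal control and differentiation libraries (0.124 to 0.231), where each of the 6 libraries correlated best with its own number, and in 2 of 3 proximal pairs (0.0362 to 0.179). Across all groups it was 8 of 18 pairs (-0.398 to 0.342). Among the proximal libraries 4 of 6 correlated best with their own number, and between groups of unlike ends 0 to 3 of 6 did. Libraries of unlike number and end reached a larger correlation, up to 0.411 for proximal differentiation 2 with distal differentiation 1. Deviations from a mean of 3 libraries are tied to each other, so these matches cannot show that the numbers pair libraries. No label says what the numbers mark. The replicate block gave 433 calls, 402 of them among the 510, and the replicate block within region gave 427, 349 of them among the 510, with 42 narrower. Of the genes named, the replicate block within region ended the calls of Srebf2 (adjusted p = 0.0509), Hnf4g (0.0542), Rbp2 (0.0542), Saa1 (0.0611), Nsdhl (0.0655), Smoc2 (0.068), Cyp51 (0.0717), Acsf2 (0.0754), Itln1 (0.079), Fdft1 (0.0829), Sct (0.0991) and Slc9a3 (0.101). The replicate block ended those of Cyp26b1 (0.0507), Fasn (0.0628), Itln1 (0.0675), Sct (0.0838) and Slc9a3 (0.0853). Scaling to summed reads ended the calls of Fdxr, Insl5, Fasn, Slc9a3, Adh1, Cyp2c68 and Cyp26b1. Other settings ended more calls among the single genes followed, and not all of these genes are listed here. With the sign kept, 24 calls ended with a pseudocount of 0.1, 22 with no filter and 43 with limma-voom. Slc15a1 was among those lost with a pseudocount of 0.1 (limma adjusted p = 0.742). With limma-voom the sign turned for Acaa1b (0.69, adjusted p = 0.759), Nox1 (0.017, adjusted p = 0.997), Atp12a (-0.81, adjusted p = 0.908) and Slc15a1 (-3.48, adjusted p = 0.156). Of the 32 genes named by kind of response, 16 kept their call in every alternative run and 0 turned sign. These genes were picked for large responses and for a call that held without proximal differentiation replicate 1, which is 1 of those runs. The count is therefore partly fixed by the choice. Reads near 0 limit genes silent at one end.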
